A study of Mus musculus with 18 samples.

Results

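The genes of the proteasome, the protease complex that breaks down proteins tagged with ubiquitin, were followed in liver RNA of Old and Young mice. They were chosen by symbol: every row of the expression table named Psma, Psmb, Psmc or Psmd with a number, apart from the interferon-induced Psmb8 and Psmb9. This gave 36 of the 18946 genes in the table: 8 genes of the alpha ring, 8 of the beta ring, 6 ATPases, 11 other subunits of the regulatory particle, and Psmd5, Psmd9 and Psmd10, which carry subunit names but are assembly chaperones that leave the finished particle. Psmb11, the subunit of the thymus proteasome, had no row in the expression table and so was not analysed here.

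The 20S core is a barrel of stacked rings. The outer alpha rings gate the entrance, and the inner beta rings carry the cutting sites of Psmb5, Psmb6 and Psmb7. The 19S regulatory particle caps the barrel, binds ubiquitin chains, removes them, and threads the unfolded protein inward with a ring of ATPases. When proteasome activity falls short, the transcription factor NRF1 (gene Nfe2l1) is processed into an activator of nearly all subunit genes, and its relative NRF2 (gene Nfe2l2), the factor of the oxidative stress response, can raise them too.

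The mice were male C57BL/6J, a common inbred strain, from one commercial supplier. Old mice (n = 10) were 19.76 months old by their sample labels, 20 months in the design text and 21 months in the growth protocol, and Young mice (n = 8) were 6.18 months old by their labels and 6 months elsewhere. Every mouse of both ages was fasted overnight and then received insulin and glucose in a hyperinsulinemic-euglycemic clamp, which holds blood glucose level under a steady insulin infusion, together with labelled glucose, lactate and palmitate. The liver was frozen directly afterwards, so no liver without insulin was part of the comparison. RNA was extracted with the AllPrep kit in 5 Old and 3 Young mice and with the RNeasy kit in 5 Old and 5 Young mice, and ribosomal RNA was depleted. Each library is a separate mouse.

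Whole reads recovered from the table came to between 85790712 and 127487771 per library. Psma8, the least read member, had 39 to 153 reads per library, and the next, Psmd10, had 510 to 1191. Hepatocyte markers, among them albumin, made up 102436 to 151018 scaled TPM in Old and 96170 to 134551 scaled TPM in Young livers, with 0 of 10 called different. This sum had a higher median in Old livers (130064 against 110079 scaled TPM). By gene, 8 of the 10 had a negative Old minus Young log2 difference and 2 a positive one (median −0.10), against 49.1% negative in all genes tested. Of 10 markers of B and plasma cells, 3 were called higher in Old livers (Jchain, Ighm and Igkc), against 2.44% of all genes tested. That list summed to 280.2 to 844.1 scaled TPM in Old and 176.5 to 276.8 scaled TPM in Young livers. None of the tested markers of Kupffer cells, T and NK cells, neutrophils, sinusoidal endothelium, stellate cells or cholangiocytes was called. Old replicate 14, Old replicate 5 and Young replicate 1 stood apart in the levels described below, and the count of calls and the values that they moved most are also given without them. In bulk tissue fewer cells of a type and less RNA per cell cannot be told apart.

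RefSeq promoter entries (build GRCm38.p6) were found for 29 of the 36 genes, as 31 promoters. There was none for Psma8, Psmb1, Psmb2, Psmb7, Psmc3, Psmd3 and Psmd7. The 250 bases before the gene start are shown first for 3 genes whose level was lower in Old livers and for Psmb5, the main catalytic subunit. They lie at chr3:108256676-108256925 on the plus strand, chr7:28050093-28050342 on the minus strand, chr5:123227940-123228189 on the plus strand and chr14:54617996-54618245 on the minus strand. Each is written 5′ to 3′ along the gene, and capitals mark a match to TGACNNNGC, the core of the element that NRF1 and NRF2 bind.
Psma5: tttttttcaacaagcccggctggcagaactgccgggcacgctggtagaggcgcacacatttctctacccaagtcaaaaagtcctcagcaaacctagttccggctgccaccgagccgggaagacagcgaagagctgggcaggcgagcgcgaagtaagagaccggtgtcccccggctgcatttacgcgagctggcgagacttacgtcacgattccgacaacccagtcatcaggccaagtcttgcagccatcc
Psmc4: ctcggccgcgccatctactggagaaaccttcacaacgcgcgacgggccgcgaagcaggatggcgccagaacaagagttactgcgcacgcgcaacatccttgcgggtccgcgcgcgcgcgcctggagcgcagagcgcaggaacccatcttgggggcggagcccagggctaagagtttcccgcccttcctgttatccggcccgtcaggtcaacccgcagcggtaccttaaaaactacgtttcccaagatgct
Psmd9: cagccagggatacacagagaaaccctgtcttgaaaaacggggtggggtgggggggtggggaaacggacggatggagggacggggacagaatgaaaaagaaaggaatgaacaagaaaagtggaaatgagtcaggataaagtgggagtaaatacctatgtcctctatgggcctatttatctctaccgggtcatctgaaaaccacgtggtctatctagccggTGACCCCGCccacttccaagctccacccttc
Psmb5: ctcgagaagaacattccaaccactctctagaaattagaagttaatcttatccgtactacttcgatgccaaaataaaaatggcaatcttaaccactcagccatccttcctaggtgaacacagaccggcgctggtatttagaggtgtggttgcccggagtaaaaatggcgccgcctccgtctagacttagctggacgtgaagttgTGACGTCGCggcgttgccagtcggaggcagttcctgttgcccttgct

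The match began 31 bases before the gene start in Psmd9 and 47 bases before it in Psmb5. Psma5 and Psmc4 held no match in this window. On either strand, 5 of 31 member promoters (16.1%) held the element, against 10.2% of all 32851 RefSeq promoters of the same length. The other 3 matches were in Psmb6, Psmc6 and Psmd12, shown with up to 12 bases on each side so that the spelling of the core can be compared. In Psmc6 and Psmd12 the capitals show the element on the opposite strand, read as its reverse complement. These windows lie at chr11:70525336-70525356 on the plus strand, chr14:45329585-45329617 on the plus strand and chr11:107479278-107479301 on the plus strand.
Psmb6: gactaaagagagTGACGGAGC
Psmc6: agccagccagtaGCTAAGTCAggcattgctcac
Psmd12: tctGCTGTGTCAcatttgcccccc

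The letters CCGGAAG, the core that ETS factors bind, were found on either strand in 10 of 31 member promoters (32.3%), against 6.91% of all promoters. Psma6, Psmc1 and Psmd4, each the most abundant gene of its class, are among them and are shown next, at chr12:55398681-55398711 on the plus strand, chr12:100110162-100110192 on the plus strand and chr3:95042721-95042751 on the minus strand, with capitals for the ETS core. In Psmc1 it is on the opposite strand.
Psma6: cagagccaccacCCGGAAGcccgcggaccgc
Psmc1: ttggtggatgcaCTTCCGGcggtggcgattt
Psmd4: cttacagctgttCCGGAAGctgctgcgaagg
The GC box GGGCGG was in 17 of 31 member promoters (54.8%), against 32.7% of all, and the CCAAT box, spelled CCAAT, in 11 of 31 (35.5%), against 33.8% of all. The ETS core, the NRF core and both boxes were searched separately, and their matches do not exclude one another. A match is only a description of these letters.

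Levels of most proteasome genes were somewhat lower in Old than in Young livers, and the shift was shared by core and cap. The Old minus Young log2 difference was negative for 34 of 36 members, against 49.1% of all genes tested. The median over the members was −0.22, a level 13.9% lower in Old livers, against 0.00 over the 13895 genes tested. Fitted in limma beside the kit, with Benjamini-Hochberg adjustment over all genes tested, 4 of 36 members were called lower in Old livers and 0 higher, against a background of 2.47% lower and 2.44% higher. Psma5, Psmc4, Psmd3 and Psmd9 were the 4 called. At an unadjusted p under 0.05, 28 members were lower and 0 higher, against a background of 11.6% lower and 11.8% higher. All 36 members passed the filter on low values. These members share libraries and varied together across them, so the 34 are not independent observations.

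Summed over the 36 genes, the level ran between 3255 and 4676 scaled TPM in Old livers (median 3763) and between 4026 and 5334 scaled TPM in Young livers (median 4339). Scaled TPM is a level corrected for gene length and library size (transcripts per a fixed total), after scaling between libraries. Old replicates 5, 6 and 16 lay within the Young range, and the other 7 Old livers lay below the lowest Young liver. No single member separated the ages completely, as did 0.202% of genes tested with Old entirely below Young. Relative to the Young mean, the median member was at −0.43 (log2) in Old replicate 14, the lowest liver, and at 0.07 in Old replicate 5, the highest Old liver. Young replicate 1 stood at 0.28, the highest of all, and the other Young livers between −0.12 and 0.08.

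**Figure D1:**
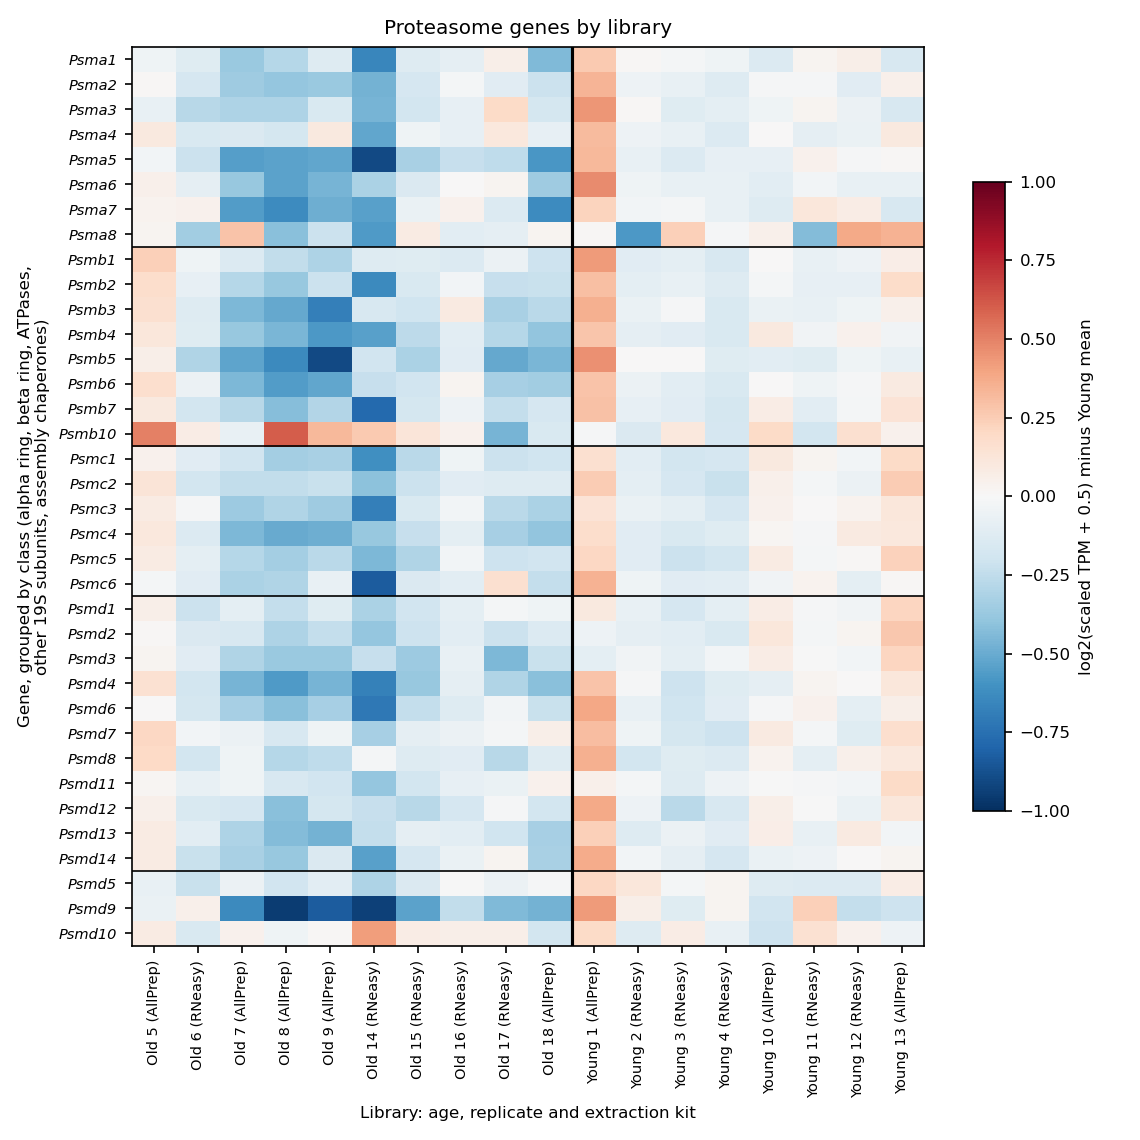
Heat map of the 36 proteasome genes (rows, grouped by class) in 10 Old and 8 Young liver libraries (columns), coloured by the log2 level minus the Young mean of that gene. Most rows are blue in Old replicates 7, 8, 9, 14 and 18 and red in Young replicate 1, whereas Psmb10 and Psmd10 do not follow the other rows.

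In the alpha ring, all 8 genes had a negative difference (median −0.21) and 1 was called. Psma5, an alpha subunit, had 68.8 to 126.6 scaled TPM in Old livers (median 96.7), against 117.7 to 162.3 scaled TPM in Young livers (median 125.6). Only 1 Old liver lay above the lowest Young liver. Psma5 fell by 0.42 on the log2 scale (SE 0.10, limma adjusted p = 0.0260), 25.1% lower in Old livers. Psma6, the most abundant alpha subunit, had 137.3 to 206.4 scaled TPM in Old livers (median 170.1) and 185.3 to 277.3 scaled TPM in Young livers (median 189.6). Its difference of −0.21 (SE 0.10) did not pass the test (limma adjusted p = 0.199), and 4 of 10 Old livers lay within the Young range. Without Young replicate 1, the highest liver for Psma6, it was −0.12 (limma adjusted p = 0.392). Psma8, which replaces Psma7 in the testis proteasome, was near the floor in liver at 0.41 to 1.15 scaled TPM in Old and 0.40 to 1.26 scaled TPM in Young livers, with overlapping groups.

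The beta ring had the most negative class median, −0.25, and none of its 8 genes was called. Psmb5, the subunit with chymotrypsin-like activity and the target of bortezomib, had 58.2 to 113.8 scaled TPM in Old livers (median 83.8) and 100.5 to 150.4 scaled TPM in Young livers (median 105.2). In 8 of 10 Old livers it was below the lowest Young liver. The difference was −0.38 (SE 0.11, limma adjusted p = 0.0601). Psmb6, with caspase-like activity, had 98.8 to 164.2 scaled TPM in Old livers (median 120.0) and 131.0 to 177.3 scaled TPM in Young livers (median 143.1), a difference of −0.25 (SE 0.10, limma adjusted p = 0.136). Psmb7, with trypsin-like activity, had 129.4 to 237.3 scaled TPM in Old livers (median 192.0) and 196.3 to 272.0 scaled TPM in Young livers (median 214.4), a difference of −0.27 (SE 0.09, limma adjusted p = 0.0916). The catalytic genes thus all had lower medians in Old livers and overlapping groups, and none passed the test. Psmb4, a beta subunit without a cutting site and the most abundant member by mean, had 172.0 to 277.4 scaled TPM in Old livers (median 203.8) and 230.7 to 311.4 scaled TPM in Young livers (median 250.8). Its difference was −0.31 (SE 0.09, limma adjusted p = 0.0597), with 7 of 10 Old livers below every Young liver.

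The one beta subunit with a positive difference was Psmb10. It encodes the inducible subunit that takes the place of Psmb7 in the immunoproteasome, the form that immune cells and cells under interferon make. Psmb10 had 15.1 to 32.2 scaled TPM in Old livers (median 22.5) and 18.5 to 24.1 scaled TPM in Young livers (median 21.2). The Old range enclosed the Young range, and the difference of 0.10 (SE 0.11) did not pass the test (limma adjusted p = 0.610).

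**Figure D2:**
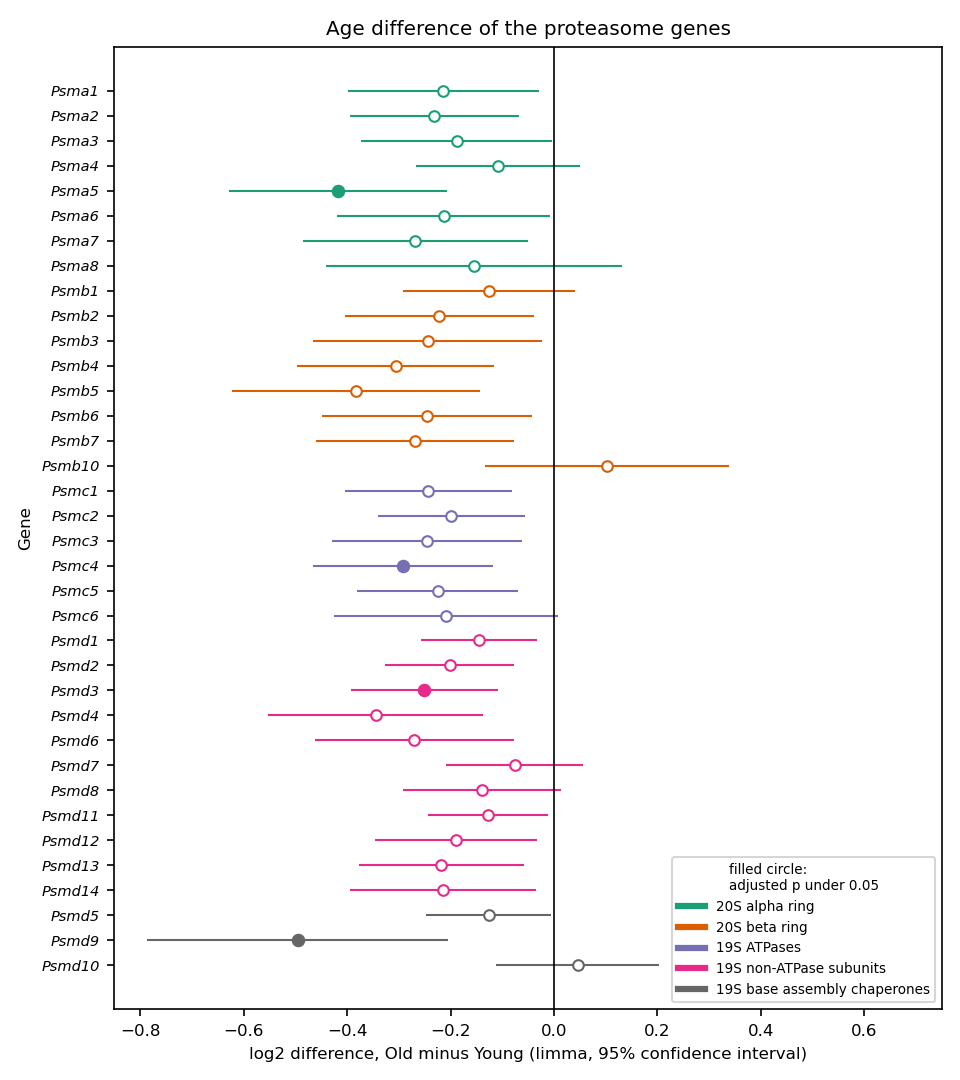
Old minus Young log2 difference of each of the 36 genes with its 95% confidence interval from limma, coloured by class; filled circles have an adjusted p under 0.05. The differences of 34 genes lie left of 0, the filled ones are Psma5, Psmc4, Psmd3 and Psmd9, and Psmb10 and Psmd10 lie right of 0, Psmd10 not so without Old replicate 14.

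Among the 19S ATPases, the ring that unfolds the substrate, all 6 genes had a negative difference (median −0.23) and 1 was called. Psmc4 had 106.0 to 162.0 scaled TPM in Old livers (median 117.4), against 135.4 to 170.3 scaled TPM in Young livers (median 150.9). It fell by 0.29 on the log2 scale (SE 0.08, limma adjusted p = 0.0499), with 7 of 10 Old livers below every Young liver, and it lies close to the threshold of 0.05. Psmc1, the most abundant ATPase gene, had 143.0 to 225.4 scaled TPM in Old livers (median 189.2) and 192.9 to 250.4 scaled TPM in Young livers (median 218.8), a difference of −0.24 (SE 0.08) that did not pass the test (limma adjusted p = 0.0733). The 6 ATPase genes were alike in size of difference, between −0.29 and −0.20.

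Of the 11 other 19S subunits, all 11 had a negative difference (median −0.20) and 1 was called. Psmd3, a subunit of the lid, had 69.5 to 97.1 scaled TPM in Old livers (median 79.1), against 88.8 to 110.2 scaled TPM in Young livers (median 93.4). It fell by 0.25 on the log2 scale (SE 0.07, limma adjusted p = 0.0405), and 8 of 10 Old livers were below the lowest Young liver. Psmd4, a receptor for ubiquitin chains, had 114.4 to 203.1 scaled TPM in Old livers (median 138.6) and 158.3 to 222.2 scaled TPM in Young livers (median 182.3). Its difference of −0.34 (SE 0.10) was the most negative of this class and just missed the threshold (limma adjusted p = 0.0516). Psmd14, the enzyme that clips ubiquitin chains off the substrate, differed by −0.21 (limma adjusted p = 0.141), and its partner Psmd7 by −0.08 (limma adjusted p = 0.492), the value of the class nearest to 0.

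The 3 chaperones that help build the ATPase ring differed from each other. Psmd9 had 20.2 to 41.0 scaled TPM in Old livers (median 27.6), against 33.4 to 53.2 scaled TPM in Young livers (median 38.3). Its fall by 0.50 on the log2 scale (SE 0.14, limma adjusted p = 0.0472) was the most negative of all 36 members, a level 29.1% lower in Old livers, and 8 of 10 Old livers were below every Young liver. Psmd5 had 27.4 to 34.0 scaled TPM in Old livers (median 32.0) and 30.9 to 39.3 scaled TPM in Young livers (median 34.2), a difference of −0.13 (SE 0.06, limma adjusted p = 0.193). Psmd10, also known as gankyrin, had 9.46 to 14.6 scaled TPM in Old livers (median 11.2) and 9.28 to 12.4 scaled TPM in Young livers (median 10.8), a difference of 0.05 (SE 0.07, limma adjusted p = 0.747) with overlapping groups. Its sign rests on Old replicate 14, without which it was −0.00092 (limma adjusted p = 0.995). The 3 genes were lower in level than nearly all subunits of the particle they help assemble.

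**Figure D3:**
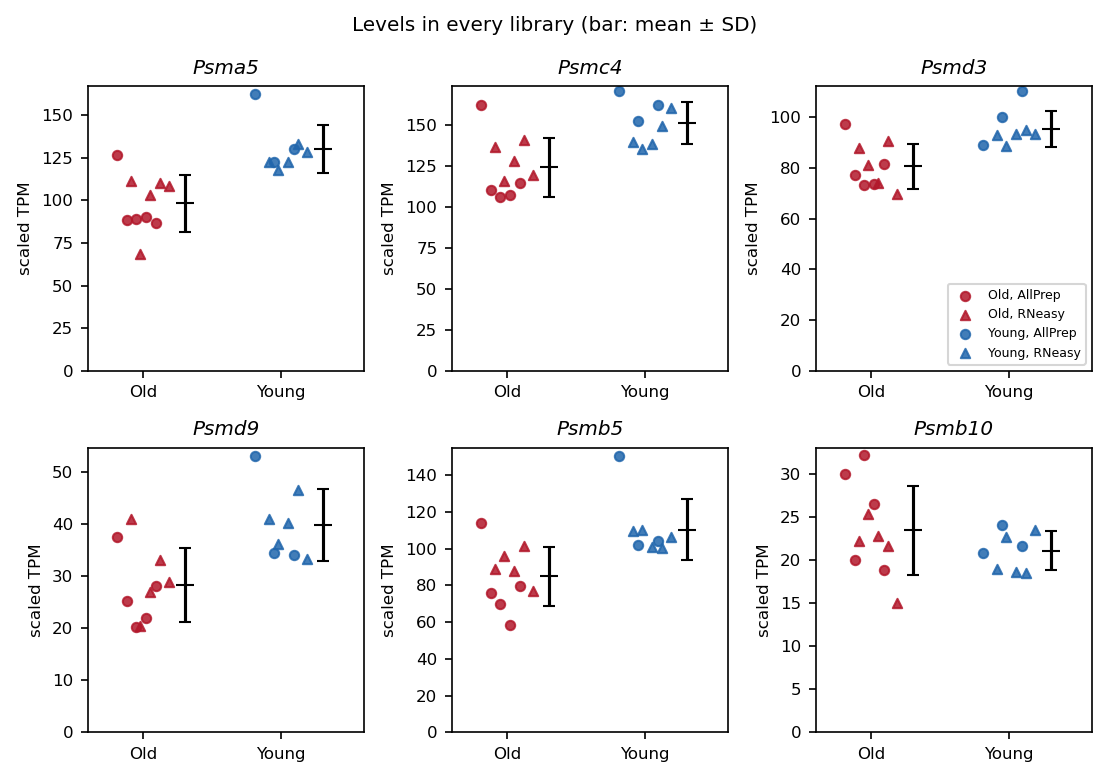
Level in scaled TPM of 6 proteasome genes in each Old (left) and Young (right) liver, with circles for AllPrep and triangles for RNeasy extractions and bars for mean ± SD. Psma5, Psmc4, Psmd3, Psmd9 and Psmb5 have most Old livers below the Young livers, and the groups of Psmb10 overlap fully.

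Of the 4 calls, Psmc4, Psmd9 and Psmd3 were close to the threshold (limma adjusted p = 0.0499, 0.0472 and 0.0405), and Psma5 was farther from it (limma adjusted p = 0.0260). Leaving out each library in turn gave between 1 and 10 members called lower (background between 1.33% and 3.36%). Psma5 was called in 17 of these 18 fits, the exception being the fit without Young replicate 1 (−0.36, limma adjusted p = 0.0604), Psmd3 in 5, and Psmc4 and Psmd9 in 3 each. The median difference stayed between −0.25 and −0.17 in the same 18 fits. Without Old replicates 5 and 14 together, an alternative chosen after seeing the data, 11 members were called lower (background 3.95%), with a median of −0.21.

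Body weight at the clamp was 35.1 to 55.0 g in Old mice and 26.6 to 34.8 g in Young mice, so the ages did not overlap in weight. With body weight as a further term, 0 members were called lower (background 0%) and the median difference was −0.02, while over all genes 0 were called lower and 3 higher. Age and body weight cannot be told apart here.

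The age difference was more negative among the AllPrep than among the RNeasy extractions, and the test of that difference called no member. The median over the members was −0.35 in the AllPrep libraries alone and −0.12 in the RNeasy libraries alone, and 0 members were called lower in either (background 0.41% and 0.0432% lower). The interaction of kit and age was negative for 35 of 36 members (background 45.7%), which means a more negative age difference with AllPrep, but 0 were called (background 0%) and 4 had an unadjusted p under 0.05 (background 4.22%), namely Psma6, Psmb6, Psmd12 and Psmd13. Psmd9 was at −0.61 with AllPrep and −0.41 with RNeasy, and Psma5 at −0.54 and −0.33 in the same order. Psmb6 was at −0.48 with AllPrep and −0.08 with RNeasy. Young replicate 1, the highest Young liver, is 1 of only 3 Young livers extracted with AllPrep. The kits also differed in body weight among the Old mice, at 39.5 to 55.0 g with AllPrep and 35.1 to 45.5 g with RNeasy. Whether the contrast between the kits follows the extraction or the body weight was not tested.

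**Figure D4:**
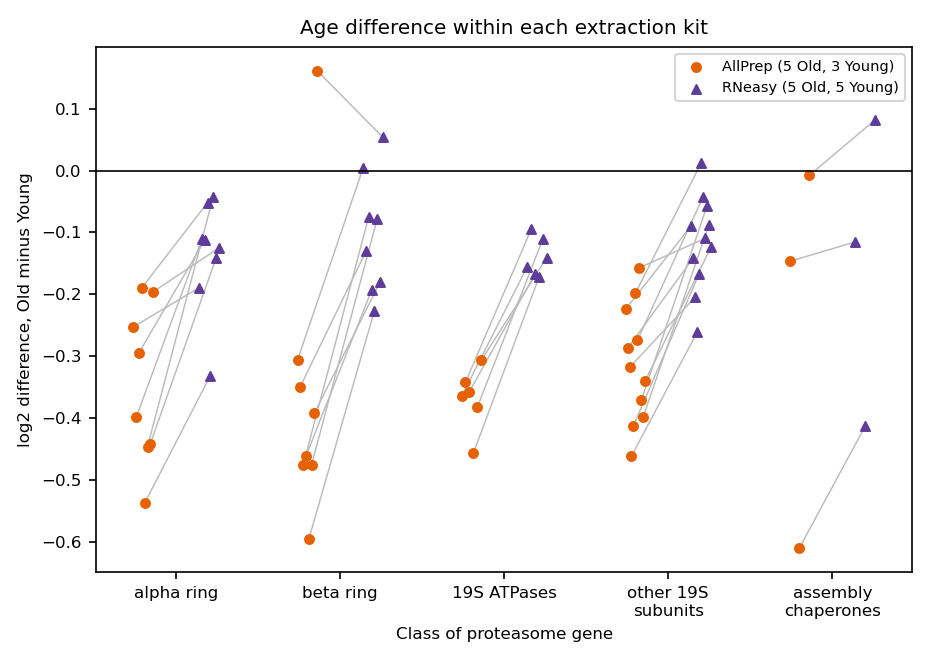
Old minus Young log2 difference of each member, by class, in the AllPrep libraries (orange circles, 5 Old and 3 Young) and the RNeasy libraries (purple triangles, 5 Old and 5 Young), with a line joining the same gene. The AllPrep value is below the RNeasy value for every gene but Psmb10, and the class medians for AllPrep lie between −0.43 and −0.15.

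Few members differed between the kits themselves. AllPrep minus RNeasy, 1 of 36 members was called higher (background 5.65%) and 0 lower (background 12.6%). It was Psmd7, at 90.7 ± 9.73 scaled TPM with AllPrep (SD, n = 8) and 79.7 ± 5.45 scaled TPM with RNeasy (SD, n = 10), a difference of 0.19 (SE 0.06, limma adjusted p = 0.0437). The sign was positive for 27 of 36 members (background 52.4%), with a median of 0.07.

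How well insulin suppressed glucose production in each mouse was recorded, from 25.4% to 68.4% in Old and from 68.4% to 92.0% in Young mice. Within age and kit, the slope of a member on this suppression was called for 0 of 36 (background 0%). Only Psmd8 and Psmd13 had an unadjusted p under 0.05 (2 of 36, background 9.12%). The median slope was 0.03 on the log2 scale per 10 percentage points, against −0.004 over all genes tested. It was positive for 33 of 36 members, and the share of all genes with a positive slope was not computed. The members vary together, so the 33 are not independent observations.

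The exchange of subunits was followed as the ratio of Psmb10 to Psmb7 within each library, which no scaling changes. Psmb10 amounted to 7.99% to 19.6% of Psmb7 in Old livers (12.8% ± 3.97, SD, n = 10) and to 7.64% to 11.0% in Young livers (9.51% ± 1.13, SD, n = 8). Of the Old livers, 9 of 10 were above the Young median and 6 above every Young liver. The log2 ratio averaged −3.03 ± 0.42 in Old and −3.40 ± 0.17 in Young livers, a 1.30-fold difference (two-sided exact permutation p = 0.0291 over 43758 regroupings). Unlike the limma fits, this test had no kit term. Within AllPrep the difference was 0.56 (exact permutation p = 0.0714 over 56 regroupings) and within RNeasy 0.24 (exact permutation p = 0.389 over 252), so that it did not pass within either kit. Without Young replicate 1 it was 0.33 (exact permutation p = 0.0628). In this ratio Psmb7 had a lower and Psmb10 a higher mean in Old livers and neither was called on its own.

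The other inducible subunits had the same sign as Psmb10. Psmb8, the counterpart of Psmb5, had 27.2 to 66.5 scaled TPM in Old livers (median 44.0) and 26.6 to 49.0 scaled TPM in Young livers (median 37.3). Psmb9, the counterpart of Psmb6, had 6.82 to 21.7 scaled TPM in Old livers (median 14.4) and 8.36 to 18.9 scaled TPM in Young livers (median 11.2). Neither was called (limma adjusted p = 0.528 for Psmb8 and 0.671 for Psmb9). With the peptide transporters Tap1 and Tap2 and other genes of antigen presentation, 9 of 9 listed genes had a positive difference (median 0.15). A positive difference was found in 7069 of all 13895 genes tested. Of the 9 listed genes 0 were called. The median of this list was 0.21 in the AllPrep libraries alone, 0.02 in the RNeasy libraries alone and 0.11 without Old replicate 14. Kupffer cell and macrophage markers, which come from cells that express the inducible subunits, ran between 282.2 and 973.6 scaled TPM in Old and between 303.5 and 677.9 scaled TPM in Young livers, with 0 of 10 called, beside the B and plasma cell markers above. Their part in the ratio was not tested.

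The 2 transcription factors that drive proteasome genes were higher in Old livers. Nfe2l1 had 79.1 to 113.6 scaled TPM in Old livers (median 93.2), against 57.3 to 90.6 scaled TPM in Young livers (median 72.8). All 10 Old livers were above the Young median while the ranges overlapped, and it rose by 0.36 on the log2 scale (SE 0.08, limma adjusted p = 0.0197). Nfe2l2 had 45.0 to 73.2 scaled TPM in Old livers (median 55.7), against 31.3 to 49.0 scaled TPM in Young livers (median 38.1). It rose by 0.55 (SE 0.09, limma adjusted p = 0.00375), and both were called in all 18 fits that left out 1 library. With body weight as a further term neither was called, at 0.23 for Nfe2l1 (limma adjusted p = 0.534) and 0.38 for Nfe2l2 (limma adjusted p = 0.333). In the AllPrep libraries alone neither was called (limma adjusted p = 0.193 for Nfe2l1 and 0.176 for Nfe2l2), and in the RNeasy libraries alone Nfe2l2 was called (limma adjusted p = 0.0262) and Nfe2l1 was not (limma adjusted p = 0.199). Of the 10 listed genes of this control these were the 2 called higher (background 2.44%), and 0 were called lower (background 2.47%). Ddi2, the protease that cuts NRF1 free, differed by 0.01 (limma adjusted p = 0.953), and Ngly1, which strips its sugars, by −0.17 (limma adjusted p = 0.189). Both factors are controlled mainly at the protein level, which these data do not measure.

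**Figure D5:**
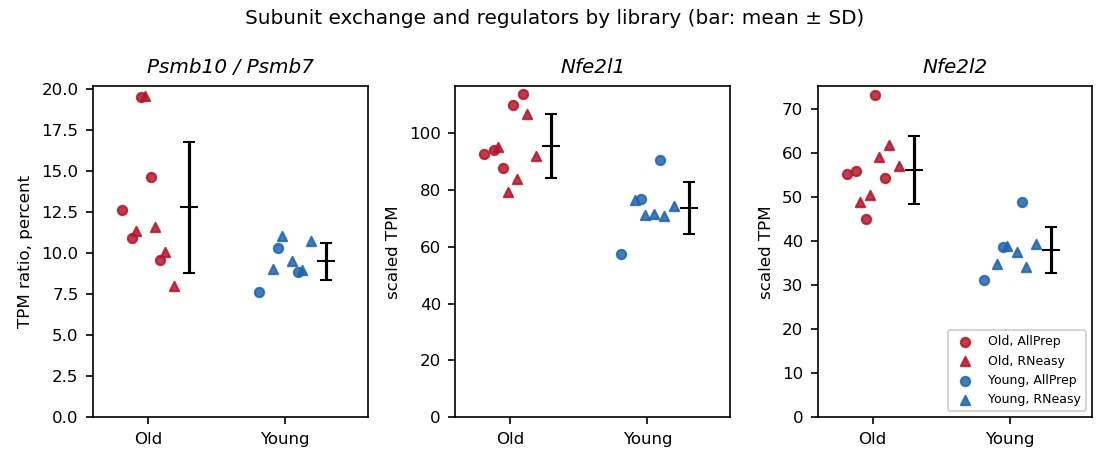
Psmb10 as a percentage of Psmb7 (left panel), and the levels of Nfe2l1 (middle) and Nfe2l2 (right) in scaled TPM, in each Old and Young liver, with circles for AllPrep, triangles for RNeasy and bars for mean ± SD. The ratio is spread more widely in Old livers, and all 10 Old livers are above the Young median for both factors.

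Of the genes that work with the proteasome, few were called. Among 11 activators, inhibitors and loosely bound partners of the cap, 0 were called and the median was −0.13. Psme1 and Psme2, which form the interferon-induced activator ring, differed by 0.00 (limma adjusted p = 0.993) and −0.01 (limma adjusted p = 0.974), and Psme4, a single-chain activator, by −0.25 (limma adjusted p = 0.0823). Usp14, a deubiquitinase of the cap, differed by −0.27 (limma adjusted p = 0.0672) and Adrm1, a ubiquitin receptor, by −0.26 (limma adjusted p = 0.0713); both were picked after their values were seen. Of 7 genes for core assembly and nuclear import, 0 were called (median −0.07), and Pomp, the chaperone of the beta ring, differed by −0.07 (limma adjusted p = 0.540).

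Upstream of the proteasome, 0 of 11 genes of the VCP unfoldase and the ubiquitin shuttles were called (median −0.15). Of 8 enzymes known as NRF2 targets, 1 was called lower (background 2.47%) and 0 higher (background 2.44%), and the median was 0.06, or −0.05 without Old replicate 14. It was Gsr, glutathione reductase, with 74.5 to 87.7 scaled TPM in Old livers (median 78.3), against 87.3 to 107.8 scaled TPM in Young livers (median 91.8), a fall by 0.24 (SE 0.05, limma adjusted p = 0.0141). Gsr was called in 18 of 18 fits that left out 1 library and in 10 of 14 other settings (highest limma adjusted p = 0.380). With body weight as a further term Gsr was not called.

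The proteasome genes also varied together from mouse to mouse within an age and kit. After both were taken out, the median Pearson correlation over the 630 pairs of members across the 18 libraries was 0.65, and 580 pairs were positive. A member correlated with the mean of the other members at a median of 0.85, and 31 of 36 members exceeded 0.5, as did 13.1% of the other genes tested. Psmd4 (Pearson 0.96, Spearman 0.93) and Psma7 (0.95 and 0.93) were highest. The lowest were Psmb10 (−0.17 and −0.20), Psmd10 (0.03 and −0.01) and Psma8 (0.21 and 0.22), and Psma8 is near the floor. All points share their libraries, and the mean of the members also correlated at 0.64 (Spearman 0.48) with how high the shortest 20% of genes stood against the longest 20% in a library. That value was 0.20 without the 2 libraries farthest from the median of that measure. With this measure as a further term, an alternative chosen after seeing the data, 11 members were called lower (background 3.54%) and the median was −0.22. The correlation with the mean of the members was −0.09 for Nfe2l1, 0.00 for Nfe2l2 and 0.60 for Pomp (Pearson).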

How the data were processed

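Total liver RNA of 10 Old and 8 Young mice was sequenced after ribosomal RNA depletion, per the labels' protocols. The deposited table holds TPM for 18946 genes, and each library sums to the same total. Per the submitters' processing notes, the tools included STAR 2.7.9a, Subread and featureCounts and the builds GRCm39 and mm10. No source used here gives the role of each build, the gene lengths or the strand setting, so overlapping or near-identical genes are uncertain, and no coordinates were taken from the table.

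TPM carries no depth, but for 18943 of 18946 genes the values of a gene stood in ratios of whole numbers (relative tolerance 1e-13), which gave reads. Library pairs of one age had a chi-square per degree of freedom of at least 73.7 (Old) and 38.2 (Young), so none agreed within sampling noise.

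Libraries were scaled by trimmed means of their log ratios (30% of ratios and 5% of levels trimmed at each end) and tested as log2(scaled TPM + 0.5), a scale that understates changes of low genes, in limma 3.58.1 (R 4.3.3) with a variance trend, age and kit. The 13895 genes that reached 0.5 TPM in 8 or more libraries were tested, with Benjamini-Hochberg adjusted p under 0.05 as a call. The scripts were tested on simulated data. Further terms were the kit by age product and the suppression of glucose production. The Psmb10 to Psmb7 ratio had a two-sided exact permutation test without a kit term (scipy 1.17.1, Python 3.11.15). P-values judge a difference or slope against the spread between mice.

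Named with values were the catalytic and substituting beta subunits, every member called for age, and in each class the member with the smallest p and the one with the highest mean. Of other lists, called genes were named, plus Nfe2l1, Nfe2l2, Pomp, Psme1, Psme2 and Psme4, and the 10 genes most correlated with the members. A further list of genes is not reported here. Other genes with values were added after these were seen. Members and lists were chosen with earlier results of these data known. Alternatives were tried for scaling, the kit term, kits alone, filter, pseudocount, library weights, body weight, limma-voom on recovered reads, and each library left out.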

Additional observations from a re-analysis of the deposited data

Results flagged for a closer look

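In 14 of 74 groups of values (each member, and the Psmb10 to Psmb7 ratio, in Old and in Young livers), 1 liver lay so far from the others of its age that its gap to the nearest exceeded Dixon's 95% limit; chance flags about 1 in 20 groups, and members that vary together are flagged together. Young replicate 1 was the highest Young liver in 10 of these. It had 189.8 scaled TPM of Psma2 (next highest Young liver 155.5), 74.3 of Psma3 (55.7), 162.3 of Psma5 (133.3) and 277.3 of Psma6 (196.2). It also had 269.7 scaled TPM of Psmb1 (209.6), 229.4 of Psmb3 (185.4), 150.4 of Psmb5 (109.9) and 103.4 of Psmc6 (83.0). For Psmd6 it had 162.3 scaled TPM (129.1) and for Psmd14 90.0 scaled TPM (70.8).

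Old replicate 14 was the lowest Old liver for Psma4, at 108.7 scaled TPM (nearest 138.0), and for Psmc6, at 45.1 scaled TPM (nearest 64.8), and the highest for Psmd10, at 14.6 scaled TPM (nearest 11.5). Old replicate 5 was the highest Old liver for Psmb1, at 236.4 scaled TPM (nearest 194.4). Without Young replicate 1 the median age difference of the 36 members was −0.17 and 1 member was called lower (background 1.41%); without Old replicate 14 it was −0.19 and 3 were called lower (background 3.36%); without Old replicate 5 it was −0.25 and 9 were called lower (background 2.61%).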

How the results depend on the processing

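The number of members called lower in Old livers (4) depended on the setting: it was 0 in either kit alone, 0 with body weight as a term, 1 without composition scaling (background 1.35%), 2 without a filter (1.97%), 8 with library weights (5.02%, against 2.47% as reported), 11 with the short against long gene term and 11 without Old replicates 5 and 14. Leaving out 1 library gave 1 to 10 (9 without Old replicate 5, 10 without Old replicate 16, with backgrounds of 2.61% and 3.25%). No setting tried called a member higher. The median difference (−0.22) moved to −0.017 with body weight and ran between −0.35 and −0.12 in all other settings, the ends being the kits alone; without composition scaling the median of all genes itself was 0.05. For the kit comparison (1 higher, 0 lower) the members called higher were 0 without composition scaling, where 1 was called lower, 5 without a filter, 0 with a 1 TPM filter, and 0 to 2 with 1 library left out. The share of all genes called for the kit in these settings was not computed. As reported it was 5.65% higher and 12.6% lower, so these counts cannot be set against a background of their own. The interaction and the slope on suppression called 0 members in every setting run. The Psmb10 to Psmb7 log2 difference (0.38) was 0.56 in AllPrep and 0.24 in RNeasy libraries alone, no longer past the threshold, and ran from 0.30 to 0.45 with 1 library left out (exact permutation p between 0.00506 and 0.0628). The cause of these changes was not tested. No paired analysis was possible because no replicate number occurs in both ages. Depth limits Psma8 only.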

Other observations

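The COP9 signalosome, a relative of the 19S lid that removes NEDD8 from ubiquitin ligases, had 0 of 9 genes called for age, with a median Old minus Young log2 difference of −0.06 and values between −0.19 and 0.05. Its median was −0.17 in the AllPrep libraries alone and 0.05 in the RNeasy libraries alone. Chaperone genes driven by the heat shock factor HSF1 had 0 of 11 tested genes called and a median of 0.17. By kit, the median of these chaperone genes was 0.003 in the AllPrep and 0.30 in the RNeasy libraries alone. Bag3, a co-chaperone that steers clients to autophagy, differed by 0.57 (limma adjusted p = 0.0824), and Hspb1, a small heat shock protein, by −0.28 (limma adjusted p = 0.619).

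The 10 genes outside the family whose level followed the mean of the proteasome genes most closely over the 18 libraries, after age and kit were taken out, were Ssu72, Mrto4, Mrpl41, Clpp, Timm8b, Timm23, Emc4, Creb3, Mrps14 and Babam1. Ssu72, a phosphatase of RNA polymerase II, had a Pearson correlation of 0.96 (Spearman 0.96), and Babam1, the last of the 10, one of 0.91. Without the 2 libraries in which the mean of the proteasome genes lay farthest from its median, the Pearson correlation of Ssu72 was 0.94. Mrpl41 and Mrps14 encode proteins of the mitochondrial ribosome, Timm8b and Timm23 parts of the mitochondrial import machinery, and Clpp the mitochondrial ClpXP protease. These correlations are a description of 18 libraries that also share the short against long gene difference.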
